A study of Mus musculus with 16 samples.

Results

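This account follows 10 genes of the circadian clock, Arntl (Bmal1 in newer annotation), Clock, Cry1, Per1, Per2, Per3, Nr1d1, Nr1d2, Dbp and Tef, across 16 mouse heart libraries. They were chosen by gene identity, as the rows of the count table whose Ensembl identifier carries 1 of these symbols, and are 10 of the 55487 genes in the table. The study asked how the loss of the cardiac lncRNA Cardinal changes the response of the heart to pressure overload. Poly(A) RNA from the apex of the heart was sequenced from 4 groups of 4 mice each. Ctrl sham and Ctrl TAC were wild-type mice by their labels, and KO sham and KO TAC carried a CRISPR/Cas9 deletion of Cardinal (Cardinal-KO). TAC, transverse aortic constriction, ties a ligature around the aortic arch so that the heart pumps against a raised pressure, and sham-operated mice served as controls. All hearts were taken 4 weeks after surgery, from male mice according to the methods of the study. Age, strain, the number of founder lines and the hour at which each heart was taken are not given in the sources used here.

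In the core loop of the clock, the ARNTL and CLOCK proteins pair and bind E-box sequences to switch on the Per, Cry, Nr1d and PAR bZIP genes (Dbp, Tef and Hlf). PER and CRY proteins then repress ARNTL and CLOCK, while the nuclear receptors NR1D1 and NR1D2 (REV-ERB alpha and beta) repress Arntl itself through RORE sequences, also called RREs. Arntl mRNA therefore peaks at the opposite side of the day from Nr1d1, Dbp and Per3. DBP protein and its relatives act at D-boxes, and in the heart the clock is known for its daily control of metabolism, ion channels and the response to load.

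The promoters of 5 members that hold a match to an element of this loop are shown. Nr1d1 also holds a match and is not shown. The RRE was searched as a pattern that allows more than 1 letter at some positions, the other elements letter for letter. Windows run from 250 bases before to 50 bases after each RefSeq start (build GRCm38.p6), printed 5′ to 3′ on the strand of the gene with the matches in capitals. The windows are Arntl at chr7:113207261-113207560 on the plus strand, Per1 at chr11:69098699-69098998 on the plus strand, Cry1 at chr10:85185005-85185304 on the minus strand, Per3 at chr4:151044616-151044915 on the minus strand and Tef at chr15:81802423-81802722 on the plus strand.
Arntl: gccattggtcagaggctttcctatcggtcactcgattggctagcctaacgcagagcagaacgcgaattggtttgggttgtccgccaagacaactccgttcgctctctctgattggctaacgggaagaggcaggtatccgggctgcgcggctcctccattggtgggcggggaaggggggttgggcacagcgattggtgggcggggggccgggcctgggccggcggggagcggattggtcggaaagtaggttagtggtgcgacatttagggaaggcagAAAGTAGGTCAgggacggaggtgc
Per1: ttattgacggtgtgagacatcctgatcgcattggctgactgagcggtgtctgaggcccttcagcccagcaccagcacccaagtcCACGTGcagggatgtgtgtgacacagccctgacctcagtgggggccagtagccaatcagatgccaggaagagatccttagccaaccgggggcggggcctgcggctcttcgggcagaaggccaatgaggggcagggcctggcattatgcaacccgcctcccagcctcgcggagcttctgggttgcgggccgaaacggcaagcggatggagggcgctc
Cry1: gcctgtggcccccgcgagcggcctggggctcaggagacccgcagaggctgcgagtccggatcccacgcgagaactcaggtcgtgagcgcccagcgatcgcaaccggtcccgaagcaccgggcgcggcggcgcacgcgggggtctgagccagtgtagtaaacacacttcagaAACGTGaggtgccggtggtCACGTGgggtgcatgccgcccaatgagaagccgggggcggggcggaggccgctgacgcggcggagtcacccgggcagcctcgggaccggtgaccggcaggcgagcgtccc
Per3: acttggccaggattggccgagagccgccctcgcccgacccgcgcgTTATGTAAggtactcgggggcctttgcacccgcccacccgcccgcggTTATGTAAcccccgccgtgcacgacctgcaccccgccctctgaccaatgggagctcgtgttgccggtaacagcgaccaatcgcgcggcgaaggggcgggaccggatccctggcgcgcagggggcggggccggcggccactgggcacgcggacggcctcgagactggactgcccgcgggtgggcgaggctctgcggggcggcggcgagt
Tef: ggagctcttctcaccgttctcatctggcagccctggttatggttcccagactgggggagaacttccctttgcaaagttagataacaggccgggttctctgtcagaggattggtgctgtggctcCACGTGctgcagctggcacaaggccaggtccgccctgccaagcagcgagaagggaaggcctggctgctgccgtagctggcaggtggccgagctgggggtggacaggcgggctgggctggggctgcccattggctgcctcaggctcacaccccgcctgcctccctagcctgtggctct

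Capitals mark an RRE in Arntl, an E-box in Per1 and Tef, an E-prime box (read on the opposite strand) followed by an E-box in Cry1, and a pair of D-boxes in Per3. RefSeq windows were at hand for 9 of the 10 members (14 windows), and Per2 was not among them. Both strands were searched. The E-box (CACGTG) stood in 4 of the 14 member windows, from Cry1, Per1 and Tef, against 7.15% of all 32851 windows. The E-prime box (CACGTT) stood in 2 of the 14, from Cry1 and Nr1d1, against 4.68% of windows. D-boxes (TTATGTAA or TTACGTAA) stood in 1 of the 14, from Per3, against 1.06%, and the RRE in 1 of the 14, from Arntl, against 0.384%. No member window held the cAMP response element TGACGTCA, which 1.79% of all windows hold. A match describes the letters in these 300-base windows and no more.

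Library totals ran from 53169437 to 79404714 counts, and 18275 genes passed the filter on low counts, all 10 members among them. Levels are given as TMM-scaled CPM, a count divided by the scaled size of its library. Cardinal (Gm12295) was at 3.24 to 3.86 CPM in Ctrl sham, 2.69 to 8.02 in Ctrl TAC and 0.297 to 0.553 in KO sham. In KO TAC, 3 libraries held 0.276 to 0.371 CPM, whereas the library labelled KO TAC 4 held 4.55 CPM, a Ctrl level, so the calls that involve KO TAC were also made without it. Among the members, Ctrl TAC 1 and KO sham 3 stood apart from their groups, and results that rest on them are given with and without them. Defining cardiomyocyte markers (6 genes, Myh6 to Tnni3) summed to 44749 to 52566 CPM in Ctrl sham and 45514 to 50759 in KO sham. In TAC they summed to 39133 to 43074 in Ctrl and 33631 to 35371 in KO. Myh6, the largest of the 6, went from a mean of 24607 to 20046 CPM in Ctrl and from 23722 to 15336 in KO. Actc1 alone of the 6 had higher means in TAC (7151 to 7945 CPM in Ctrl, 7142 to 7445 in KO). The sum of 6 fibroblast markers ran from 486 to 549 CPM over the sham libraries, from 692 to 991 in Ctrl TAC and from 997 to 1174 in KO TAC. In such bulk RNA, fewer cells of a type, less RNA per cell and a change in the marker genes themselves cannot be told apart. The part of this shift in the TAC results below was not tested. The sums of 5 macrophage markers ran from 81.9 to 116 CPM over sham and 124 to 164 over TAC, and those of 5 smooth muscle and pericyte markers from 597 to 716 over all libraries. The sum of 4 fat markers ran from 15.7 to 19.5 CPM over sham and from 21.7 to 25.3 over TAC, nearly all of it Cidea, with group means of Ucp1, Adipoq and Plin1 at 0.456 CPM or less. Skeletal muscle markers summed to at most 3.97 CPM and atrial markers to at most 16.2, with Sln at 0 in all KO TAC libraries. Ctrl TAC 2 was the highest library for Ucp1 (1.46 CPM), Adipoq (0.657), Plin1 (0.583), Myh4 (1.81) and Myl7 (0.822). It was left out together with KO TAC 4 in an alternative fit. The edgeR and DESeq2 p-values below set group differences against the spread between these 16 animals within their groups. Those of the correlations come from permuting libraries within groups.

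Per kilobase of exon, the output factor Dbp was the most abundant member, at 42.2 ± 7.80 CPM per kb (mean ± SD, n = 16 libraries). It was followed by Nr1d2 at 24.7 ± 4.14, Tef at 24.3 ± 3.92, Nr1d1 at 17.8 ± 4.49, Per1 at 13.1 ± 2.25, Per2 at 8.20 ± 2.35 and Per3 at 4.86 ± 0.811. Cry1 was at 4.01 ± 0.561, Clock at 2.15 ± 0.235 and Arntl last at 0.183 ± 0.0862 CPM per kb. Only Cry1 against Clock and Clock against Arntl, among neighbours in this order, did not overlap over the libraries. The low level of Arntl rested on 39 to 176 counts per library, against 5047 to 11088 for Dbp. Within groups Arntl was also the most variable member, with an SD of 0.58 on the log2 scale, above that of 91.1% of the genes tested. Per2 followed at 0.42 (above 82.2% of genes), and Clock varied least at 0.12 (above 34.7%), with a median of 0.17 over all genes.

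**Figure D1:**
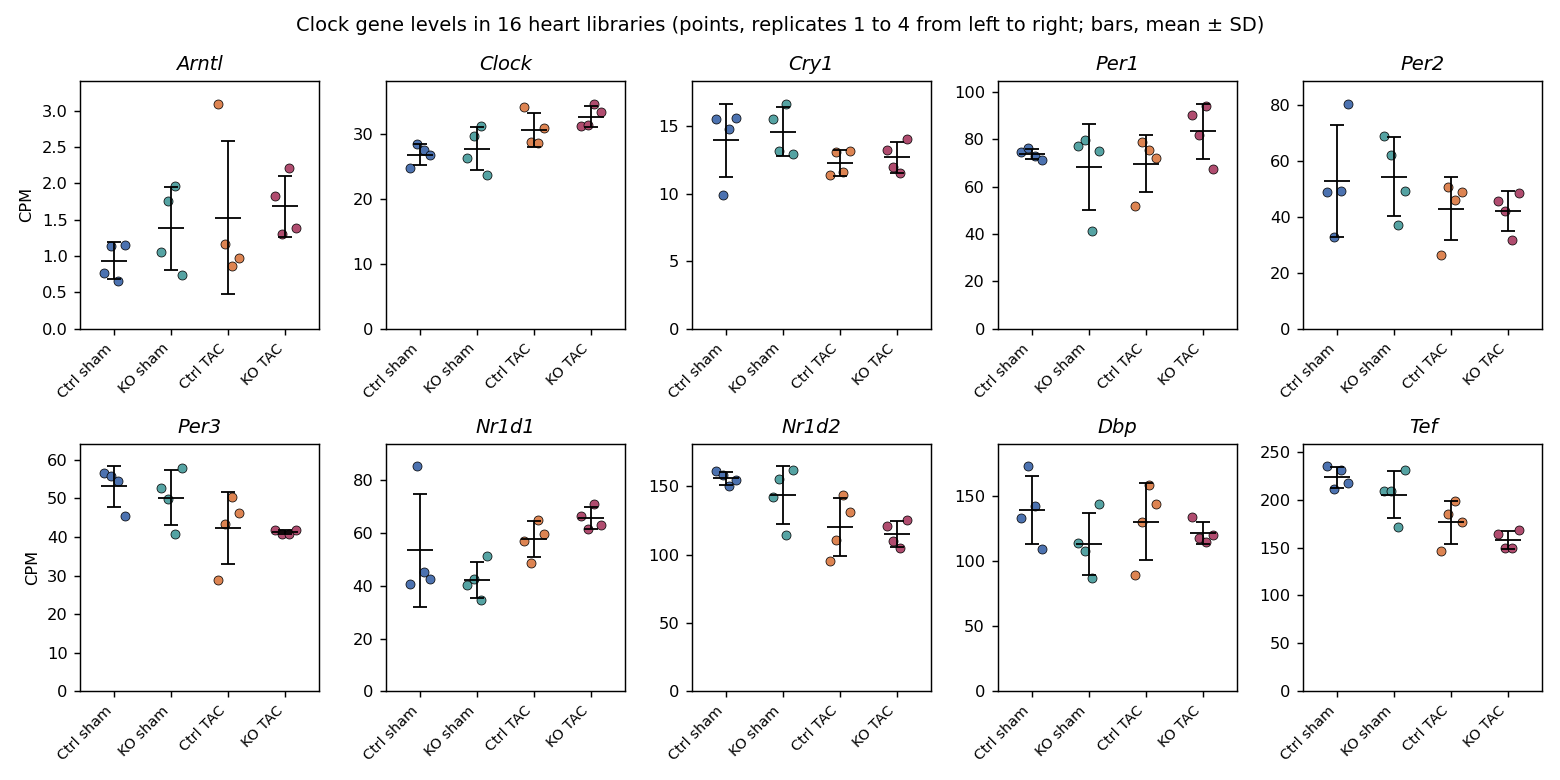
TMM-scaled CPM (y axis, from 0) of the 10 clock members in each library (points) by group (x axis), with the mean ± SD of each group of 4. Tef and Nr1d2 lie lower in TAC than in sham, Arntl has a single high library in Ctrl TAC (3.10 CPM), and Nr1d1 a single high library in Ctrl sham (85.4 CPM).

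Tef and Nr1d2 were called lower in TAC than in sham hearts in both genotypes, with both Nr1d2 calls near the threshold. Of the 10 members, 2 passed an adjusted p of 0.05 in Ctrl hearts (edgeR quasi-likelihood test), both lower, where 20% of all 18275 genes did (10.4% higher and 9.6% lower). In Cardinal-KO hearts 4 members passed, Clock and Nr1d1 higher and Nr1d2 and Tef lower, where 34.3% of all genes did (17.8% higher and 16.5% lower). Both shares of the members were near those of all genes, so the calls are read gene by gene. The median log2 change of the members was -0.14 in Ctrl and -0.05 in KO, beside 0.0043 and -0.0039 for all genes. The contrasts share no library, but they share the estimate of the spread.

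Tef, a PAR bZIP factor that drives clock output genes (chromosome 15, 81802421 to 81826863), had 235, 211, 231 and 217 CPM in Ctrl sham and 146, 185, 198 and 176 in Ctrl TAC. In the Cardinal-KO it had 209, 209.6, 172 and 231 CPM in sham and 164, 149.9, 149 and 168 in TAC. The highest TAC library lay below the lowest sham library in both genotypes. On the log2 scale Tef fell by 0.34 ± 0.09 (SE) in Ctrl (adjusted p = 0.0105, edgeR) and by 0.38 ± 0.09 in KO (adjusted p = 0.00284). Whichever of the 16 libraries was left out, it passed in both genotypes, and without KO TAC 4 it fell by 0.41 in KO (adjusted p = 0.00411). Antisense gene Gm17597 shares 193 exon bases with Tef on the other strand, and whether counting used the strand is not given in the sources used here.

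Dbp, its relative in the PAR bZIP family (chromosome 7, 45705088 to 45710203), did not pass in either genotype. Its levels were 133, 173, 142 and 109 CPM in Ctrl sham and 89.4, 130.3, 159 and 144 in Ctrl TAC. Cardinal-KO hearts had 114, 108, 86.9 and 144 CPM in sham and 134, 118, 115 and 121 in TAC. Sham and TAC overlapped over most of their range, and the log2 differences were -0.10 (95% interval -0.45 to 0.26) in Ctrl and 0.11 (-0.25 to 0.46) in KO. The Ctrl interval includes the value of Tef in Ctrl and the KO interval does not include that of Tef in KO, though the members were not tested against each other. Sphk2 shares 539 exon bases with Dbp on the other strand.

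Nr1d2, 1 of the nuclear receptors that repress Arntl (chromosome 14, 18204054 to 18239127), had 161, 158, 150.0 and 154 CPM in Ctrl sham and 95, 111, 143 and 131 in Ctrl TAC. In the Cardinal-KO the values were 143, 155, 114 and 162 CPM in sham and 121, 110.1, 105 and 125 in TAC. All Ctrl TAC libraries lay below all Ctrl sham libraries, whereas KO sham 3 lay among the KO TAC libraries. Nr1d2 fell by 0.38 ± 0.12 on the log2 scale in Ctrl (adjusted p = 0.0296, edgeR) and by 0.32 ± 0.12 in KO (adjusted p = 0.0426). Either call was near the threshold. The Ctrl call was lost without any 1 of Ctrl sham 1, 2 and 4 and Ctrl TAC 1 and 2 (adjusted p up to 0.0789), and the KO call was lost in 10 of 16 such fits (up to 0.130), though not without KO TAC 4 (adjusted p = 0.0415).

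Nr1d1, its close relative (chromosome 11, 98767932 to 98775333), moved the other way in Cardinal-KO hearts. It had 40.3, 42.6, 34.5 and 51.3 CPM in KO sham and 66.6, 61.7, 71.1 and 63.1 in KO TAC, with no overlap. On the log2 scale it rose by 0.64 ± 0.20 (adjusted p = 0.0273, edgeR). That call was lost without any 1 of KO sham 1, 2 and 3 and KO TAC 1 and 3 (adjusted p up to 0.0771), and stayed without KO TAC 4 (0.66, adjusted p = 0.0436). It was also lost with a term for the animal-number series 33 described below (0.34, adjusted p = 0.357) and without Ctrl TAC 2 and KO TAC 4 together (0.66, adjusted p = 0.0506). In Ctrl hearts the levels were 40.6, 85.4, 45.2 and 42.5 CPM in sham and 57.2, 48.8, 65.2 and 59.6 in TAC. Here 1 sham library, Ctrl sham 2, lay above every TAC library and the other 3 lay below them all. With it the log2 difference was 0.11 ± 0.20 (adjusted p = 0.770), and without it 0.43 (adjusted p = 0.0136). The difference between the genotypes in the TAC effect was 0.53 ± 0.29 (interaction, adjusted p = 0.526), so a difference was not shown. Thra shares 263 exon bases with Nr1d1 on the other strand.

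Of the activators, Clock (chromosome 5, 76209868 to 76304792) had 24.7, 28.4, 27.5 and 26.8 CPM in Ctrl sham and 34.1, 28.8, 28.6 and 31.0 in Ctrl TAC. KO sham had 26.4, 29.7, 31.3 and 23.7 CPM and KO TAC 31.3, 31.5, 34.7 and 33.3. The Ctrl groups did not overlap, and in the KO only KO sham 3 reached the level of the lowest TAC library. Clock rose by 0.24 ± 0.08 on the log2 scale in KO (adjusted p = 0.0271, edgeR), a call lost without any 1 of KO sham 1 and 4 and KO TAC 3 and 4 (0.0582 without KO TAC 4). In Ctrl its difference was 0.19 ± 0.08 (adjusted p = 0.104). Counting non-overlap rather than calls, 3 members (Clock, Nr1d2, Tef) had separate groups in Ctrl against 20.5% of all genes, and 2 (Nr1d1, Tef) in KO against 34.6%.

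Arntl, the partner of Clock (chromosome 7, 113207465 to 113314126), had 0.766, 1.14, 0.659 and 1.15 CPM in Ctrl sham and 3.10, 1.17, 0.867 and 0.975 in Ctrl TAC. KO sham had 1.06, 1.75, 1.96 and 0.738 CPM and KO TAC 1.83, 1.30, 2.21 and 1.39. A single library, Ctrl TAC 1, stood far above its group, and the groups overlapped in both genotypes. The log2 difference of 0.71 ± 0.39 in Ctrl (adjusted p = 0.238) was 0.11 without Ctrl TAC 1, and in KO it was 0.29 ± 0.38 (adjusted p = 0.611).

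Of the Per and Cry members none passed. Per3 (chromosome 4, 151003652 to 151044665) came closest, with 56.7, 55.9, 54.6 and 45.4 CPM in Ctrl sham against 28.9, 43.3, 50.5 and 46.2 in Ctrl TAC. KO sham had 52.6, 49.8, 40.7 and 57.8 CPM against 41.9, 40.7, 40.9 and 41.8 in KO TAC. Most TAC libraries were lower than most sham libraries, with Ctrl sham 4 and KO sham 3 as the exceptions. The log2 differences were -0.33 ± 0.14 in Ctrl (adjusted p = 0.109, edgeR) and -0.28 ± 0.14 in KO (adjusted p = 0.132). In KO, Per3 passed without Ctrl TAC 1 and KO sham 3 (-0.37, adjusted p = 0.00106), a choice made after seeing the data, and in the fit to the 8 KO libraries alone (-0.28, adjusted p = 0.0218).

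Per2 (chromosome 1, 91415982 to 91459324) ranged more widely within groups, from 32.7 to 80.5 CPM in Ctrl sham, 37.0 to 69.1 in KO sham, 26.2 to 50.6 in Ctrl TAC and 31.9 to 48.3 in KO TAC. Its log2 differences were -0.30 ± 0.28 in Ctrl and -0.37 ± 0.28 in KO (adjusted p = 0.523 and 0.351). Per1 (chromosome 11, 69095217 to 69109960) was at 71.4 to 76.4 CPM in Ctrl sham and 52.0 to 78.8 in Ctrl TAC, and at 41.4 to 79.6 in KO sham and 67.5 to 94.0 in KO TAC. Its differences, -0.08 ± 0.18 and 0.29 ± 0.18, had opposite signs and did not pass (adjusted p = 0.805 and 0.249). Cry1 (chromosome 10, 85131700 to 85185064) was at 9.94 to 15.6 CPM in Ctrl sham, 13 to 16.7 in KO sham, 11.4 to 13.2 in Ctrl TAC and 11.5 to 14.1 in KO TAC. It differed by -0.18 ± 0.12 and -0.20 ± 0.12 (adjusted p = 0.340 and 0.229). The Ctrl value of Cry1 passed only without Ctrl sham 2, whose 9.94 CPM was the lowest of all libraries (-0.31, adjusted p = 0.0298).

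**Figure D2:**
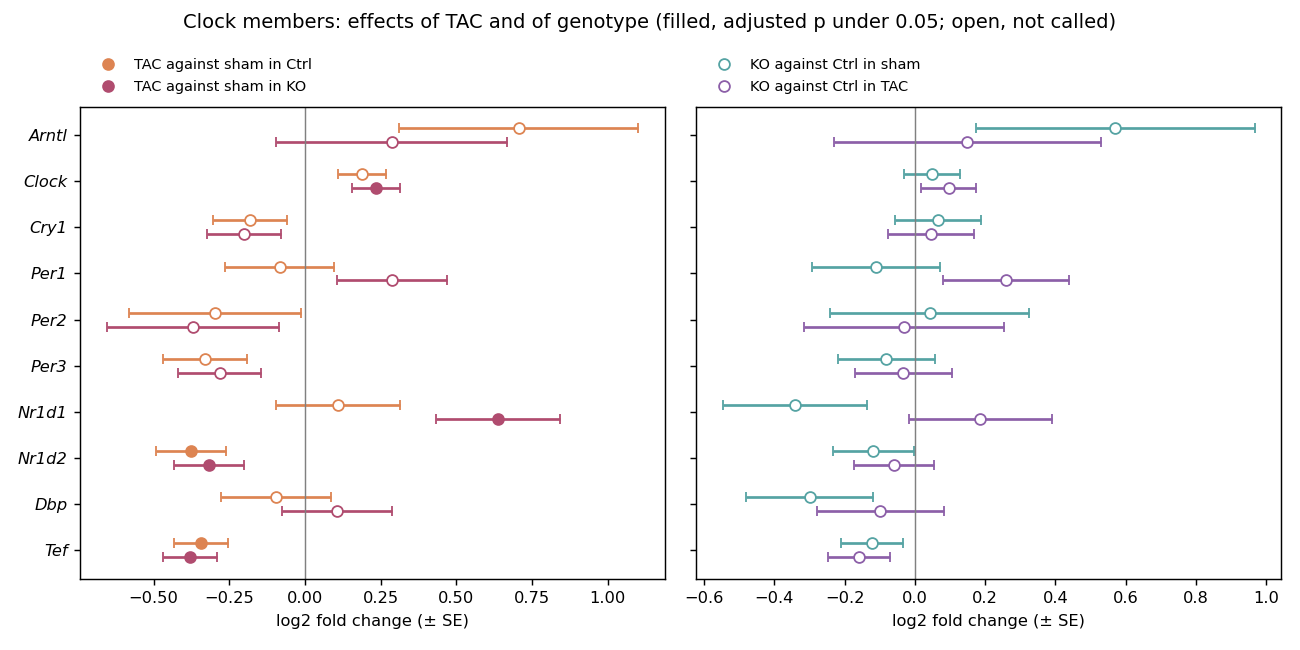
Log2 fold changes with SE (x axis) of the 10 members (y axis) for TAC against sham in each genotype (left) and Cardinal-KO against Ctrl in each operation (right). Filled points have an edgeR adjusted p under 0.05. Tef and Nr1d2 are filled and lower for both TAC contrasts, Clock and Nr1d1 for KO hearts only, and no genotype contrast is filled.

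With Cardinal deleted, the model called no clock member in either operation. Between KO sham and Ctrl sham 0 of the 10 members passed, and 0% of all genes did. Cardinal itself, the deleted gene, was not called there, at -2.92 on the log2 scale, though its groups did not overlap. A lack of calls in this contrast therefore does not show that the members were unchanged. At an unadjusted p under 0.05 there were 0 members among 479 of 18275 genes, and DESeq2 called 0 members and 3 genes in all. The largest differences of the members on the log2 scale were 0.57 ± 0.40 for Arntl, -0.34 ± 0.20 for Nr1d1 and -0.30 ± 0.18 for Dbp. Between KO TAC and Ctrl TAC 0 members passed (2.68% of all genes did), again with 0 at an unadjusted p under 0.05 (18.5% of all genes) and 0 by DESeq2. Cardinal was not called by edgeR in this contrast either (-1.57, with KO TAC 4 included). Here Tef was at -0.16 (95% interval -0.33 to 0.01, adjusted p = 0.355) and Per1 at 0.26 (-0.09 to 0.61, adjusted p = 0.481). Without KO TAC 4 the Tef value was -0.19 (adjusted p = 0.316). Without Ctrl TAC 1 and KO sham 3 together, chosen after seeing the data, Tef alone of the members passed (-0.24, adjusted p = 0.0448). The interaction of genotype and surgery called 0 members (0.0109% of all genes), with 0 at an unadjusted p under 0.05 (11.1% of all genes) and 0 by DESeq2.

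Other genes of the clock showed a like mixture of directions under load. Of 18 such genes, all tested, 4 passed in Ctrl hearts (1 higher, 3 lower) and 10 in KO hearts (5 higher, 5 lower), beside the 20% and 34.3% of all genes. Cry2, the paralog of Cry1 (43.4, 46.6, 43.4 and 41.7 CPM in Ctrl sham, 35.3, 39.4, 33.9 and 33.6 in Ctrl TAC), fell by 0.30 ± 0.07 in Ctrl and 0.40 ± 0.07 in KO on the log2 scale (adjusted p = 0.00308 and 0.000124, edgeR). The casein kinase Csnk1e, which phosphorylates PER proteins, fell by 0.33 ± 0.05 and 0.21 ± 0.05 (adjusted p = 0.000106 and 0.00226). Timeless, which also serves DNA replication, rose from 12.4 ± 1.36 to 15.9 ± 1.42 CPM in Ctrl and from 12.7 ± 1.1 to 19.0 ± 0.995 in KO (adjusted p = 0.00485 and 3.46e-05). Cry2, Csnk1e and Timeless were called in both genotypes, and their sham and TAC groups did not overlap. Without KO TAC 4 they were also called in KO, at -0.36, -0.19 and 0.59 (adjusted p up to 0.0106).

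The genes called in KO hearts and not in Ctrl hearts included Bhlhe40, Bhlhe41, Csnk1d, Fbxl21 and Hlf. Bhlhe40 and Bhlhe41 (DEC1 and DEC2), which repress E-box genes, rose by 0.69 ± 0.19 and 0.59 ± 0.13 (adjusted p = 0.0107 and 0.00195, edgeR). Bhlhe40 had 45.2, 59.4, 37.7 and 41.1 CPM in KO sham and 72.8, 71.4, 88.9 and 62.7 in KO TAC. Csnk1d, another PER kinase, rose by 0.20 ± 0.05 (adjusted p = 0.00278). Fbxl21, an F-box protein gene, rose by 1.04 ± 0.25 (adjusted p = 0.00352) on a base of 15 to 55 counts per KO library. Hlf, the remaining PAR bZIP factor, fell by 0.56 ± 0.20 (adjusted p = 0.0416). That call was kept in 4 of the 16 fits without 1 library and lost without KO TAC 4 (0.0710). Though not called in Ctrl hearts, Hlf had separate groups there, at 41.9 to 47.6 CPM in sham and 20.3 to 40.3 in TAC. In KO hearts its groups overlapped, with KO sham 3 at 27.1 CPM and KO TAC 1 at 31.2. Without KO TAC 4, Bhlhe40, Bhlhe41, Csnk1d and Fbxl21 were still called, at 0.76, 0.57, 0.22 and 1.02 (adjusted p up to 0.0104). None of the 18 passed the interaction, and none passed between KO TAC and Ctrl TAC (2 and 4 at an unadjusted p under 0.05), although DESeq2 called Bhlhe40 and Fbxl21 there (0.63 and 0.93 higher in KO TAC, adjusted p = 0.0265 and 0.0229). Without KO TAC 4, a choice made after seeing the data for DESeq2, that tool called Bhlhe40 (adjusted p = 0.00441) and not Fbxl21 (0.0628).

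**Figure D3:**
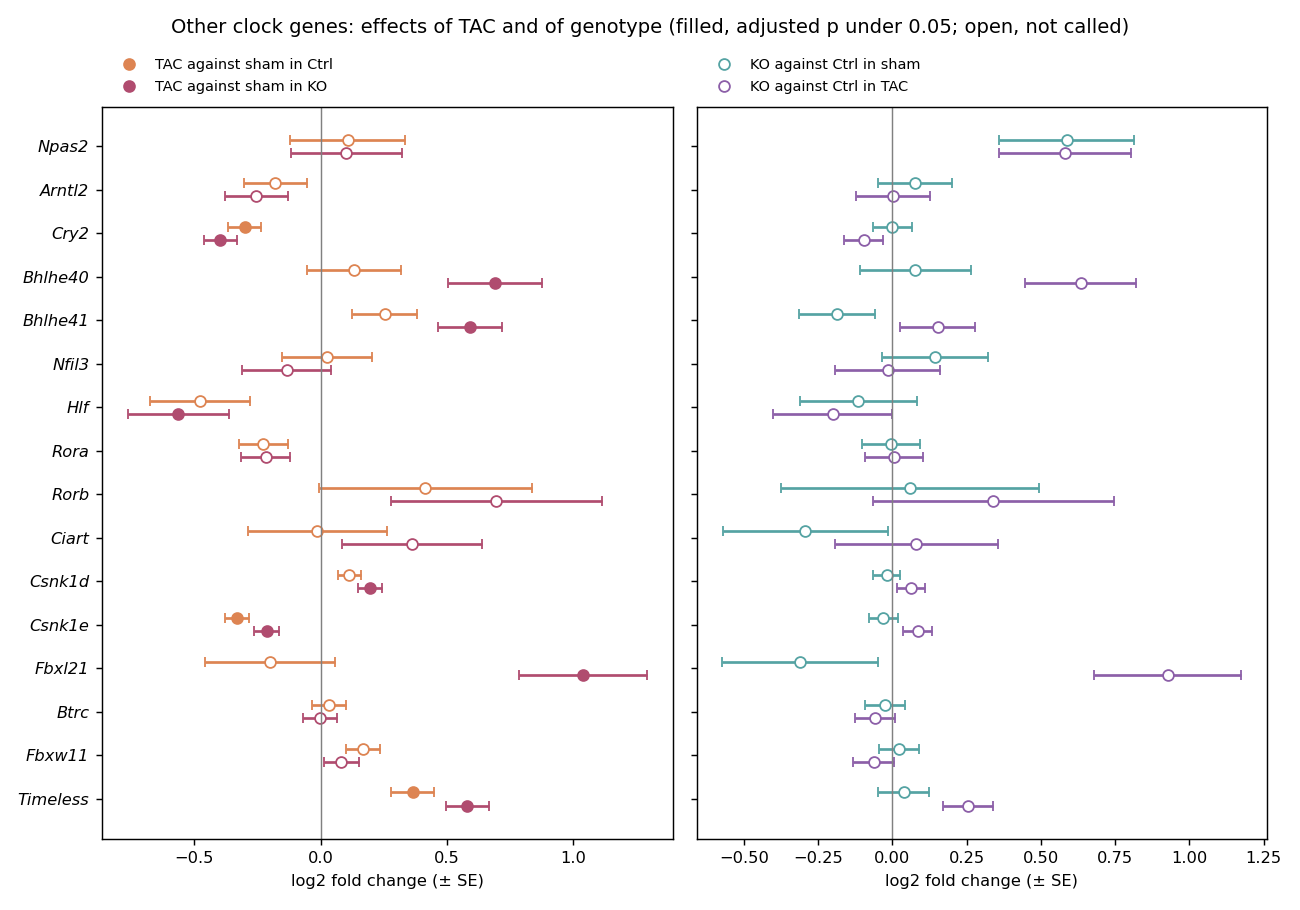
Log2 fold changes with SE (x axis) of 16 of the 18 other clock genes (y axis), arranged as for the members, with filled points for an edgeR adjusted p under 0.05. Cry2 and Csnk1e are lower and Timeless higher for TAC in both genotypes, 5 further genes are filled for KO hearts only, and the right panel has no filled point.

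Genes known to follow the clock in peripheral tissues were lower where they were called. Of 12 such genes, in Ctrl hearts 5 fell and 0 rose (20% of all genes called), and in KO hearts 6 fell and 0 rose (34.3%). The median log2 change of the list was -0.27 and -0.35, beside the same 0.0043 and -0.0039 for all genes. The cardiomyocyte and fibroblast sums given above moved with surgery in the same libraries, and their part was not tested. Kcnip2, a potassium channel subunit that shapes repolarization, went from 165 ± 6.43 to 89.9 ± 5.59 CPM in Ctrl and from 173 ± 8.70 to 83.1 ± 12.1 in KO. Nampt, the enzyme that limits NAD+ salvage, went from 256 ± 25.2 to 148 ± 18.0 CPM and from 237 ± 45.1 to 118 ± 8.27. Klf15, a regulator of cardiac metabolism, fell by 0.55 ± 0.15 and 1.1 ± 0.15 on the log2 scale (adjusted p = 0.0174 and 5.57e-05, edgeR), and the stress protein gene Herpud1 by 0.52 ± 0.14 and 1.07 ± 0.14 (adjusted p = 0.0138 and 2.25e-05). Of 10 glucocorticoid-responsive genes, a list fixed because Per1 also answers to this hormone, Cdkn1a rose in both genotypes (0.74 ± 0.22 and 0.87 ± 0.22, adjusted p = 0.0292 and 0.0071) and Klf9 fell in KO (-0.35 ± 0.09, adjusted p = 0.00709). The other 8 genes of that list did not pass in either genotype. Klf9, Tsc22d3 and Pdk4 stand on both lists. Without KO TAC 4, 6 of the output genes were again called lower in KO and 0 higher, with Kcnip2 at -0.99, Nampt at -1.01, Klf15 at -1.13 and Herpud1 at -1.07 (adjusted p up to 0.000213), and Cdkn1a (0.85) and Klf9 (-0.37) were called with Zbtb16 (-1.53, adjusted p = 0.0269), which is named after its value was seen.

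Within groups, where the genotype label and surgery are constant, some of the members varied together. After each group mean was subtracted from log2 CPM, 12 of the 45 pairs of members correlated over the 16 libraries at an adjusted p under 0.05 (permutation of libraries within groups, 100000 resamples, two-sided, adjusted over the 45 pairs). Of these, 7 were positive and 5 negative, and pairs of other genes were not tested in this way. Arntl missed that threshold with Nr1d1 (r = -0.03), Cry1 (-0.16), Per1 (-0.48), Per2 (-0.48), Nr1d2 (-0.71) and Dbp (-0.74). Dbp and Per3 rose and fell together, with Pearson r = 0.92 (permutation p = 0.000140, adjusted 0.00630) and Spearman rho = 0.84 (permutation p = 0.000680, adjusted 0.0306). Arntl ran against Per3, with r = -0.86 (permutation p = 0.000990, adjusted 0.0130) and rho = -0.75 (permutation p = 0.00581, adjusted 0.0436). Cry1 ran against Nr1d1, with r = -0.89 (permutation p = 0.00298, adjusted 0.0149) and rho = -0.84 (permutation p = 0.00359, adjusted 0.0354). Arntl and Clock went together (r = 0.79, adjusted permutation p = 0.0167; rho = 0.71, adjusted 0.0772), while Arntl ran against Tef (r = -0.82, adjusted 0.0130; rho = -0.68, adjusted 0.0708). The negative pairs all set an activator, Arntl or Clock, against Per3 or Tef, or Cry1 against Nr1d1.

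The calls for these correlations depended on 2 libraries, while the size of r fell much in some pairs and little in others. With Ctrl TAC 1 and KO sham 3 left out, a choice made after seeing the data, all 12 pairs kept their sign but none passed, with r between 0.33 and 0.90 in size. In that set Dbp and Per3 still had r = 0.85 and Cry1 and Nr1d1 r = -0.90 (adjusted permutation p = 0.113 for each), whereas Arntl and Per3 had r = -0.61 (adjusted 0.185). With the 2 libraries farthest from the median of the first gene left out, r was 0.86 for Per3 and Dbp, -0.69 for Arntl and Per3 and -0.73 for Cry1 and Nr1d1. For Cry1 and Nr1d1 the libraries left out were Ctrl sham 2 and KO sham 4. Within the 8 sham libraries alone and within the 8 TAC libraries alone, 0 pairs passed (exact permutation test, 576 arrangements, smallest p allowed by the design 0.00347), and again all 12 kept their sign. Per3 and Dbp had r = 0.90 in sham and 0.97 in TAC. Cry1 and Nr1d1 had r = -0.97 in sham, where Ctrl sham 2 is included, and -0.46 in TAC. Without Ctrl TAC 2 and KO TAC 4, 10 of the 12 pairs still passed. The pairs were not tested without KO TAC 4 alone, the KO library that held Cardinal at a Ctrl level.

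**Figure D4:**
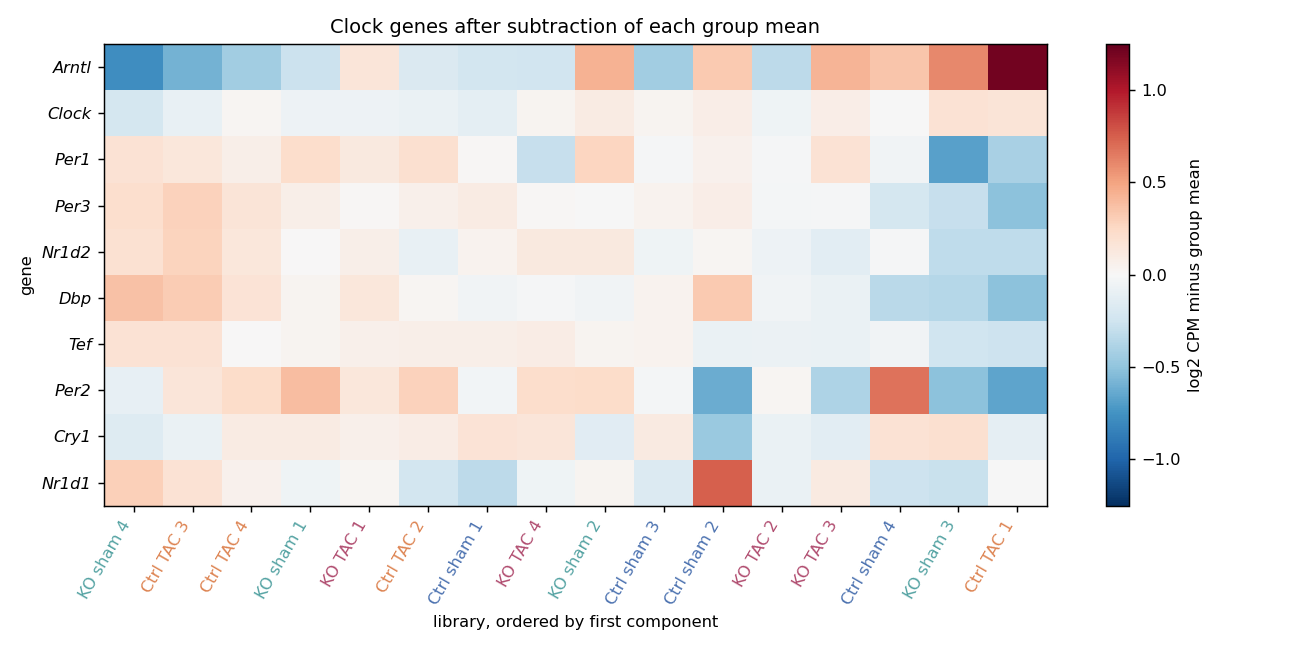
Log2 CPM minus the group mean (colour, from lower in blue to higher in red) of the 10 members (rows) in the 16 libraries (columns, ordered by the first principal component). Ctrl TAC 1 and KO sham 3, at the right, have Arntl high and Per3, Dbp, Nr1d2 and Tef low, and Ctrl sham 2 has Nr1d1 high with Per2 and Cry1 low.

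A principal component analysis of the group-centred, scaled values put 57.8% of the variance on 1 axis and 25.4% on the next. On the first, Arntl (weight 0.36) and Clock (0.34) stood opposite Per3 (-0.40), Tef (-0.39), Nr1d2 (-0.38), Dbp (-0.37), Per1 (-0.32) and Per2 (-0.22). Ctrl TAC 1 (score 5.54) and KO sham 3 (4.92) lay at its Arntl end, and KO sham 4 (-3.54) and Ctrl TAC 3 (-3.30) at the other. The remaining 12 libraries lay between -1.39 and 1.17. On the next axis Nr1d1 (0.58) stood opposite Cry1 (-0.60) and Per2 (-0.43), with Ctrl sham 2 (4.55) at one end and Ctrl sham 4 (-2.22) at the other. A single ratio, log2 Dbp over Arntl in CPM without centring, was also lowest in Ctrl TAC 1 (4.85) and KO sham 3 (5.47), while its highest value was in Ctrl sham 3 (7.76), a library in the middle of the first axis (-0.22). Over the groups this ratio ran from 6.56 to 7.76 in Ctrl sham, 5.47 to 7.61 in KO sham, 4.85 to 7.52 in Ctrl TAC and 5.70 to 6.51 in KO TAC. The hour of collection is not given in the sources used here, and its part in this pattern was not tested.

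**Figure D5:**
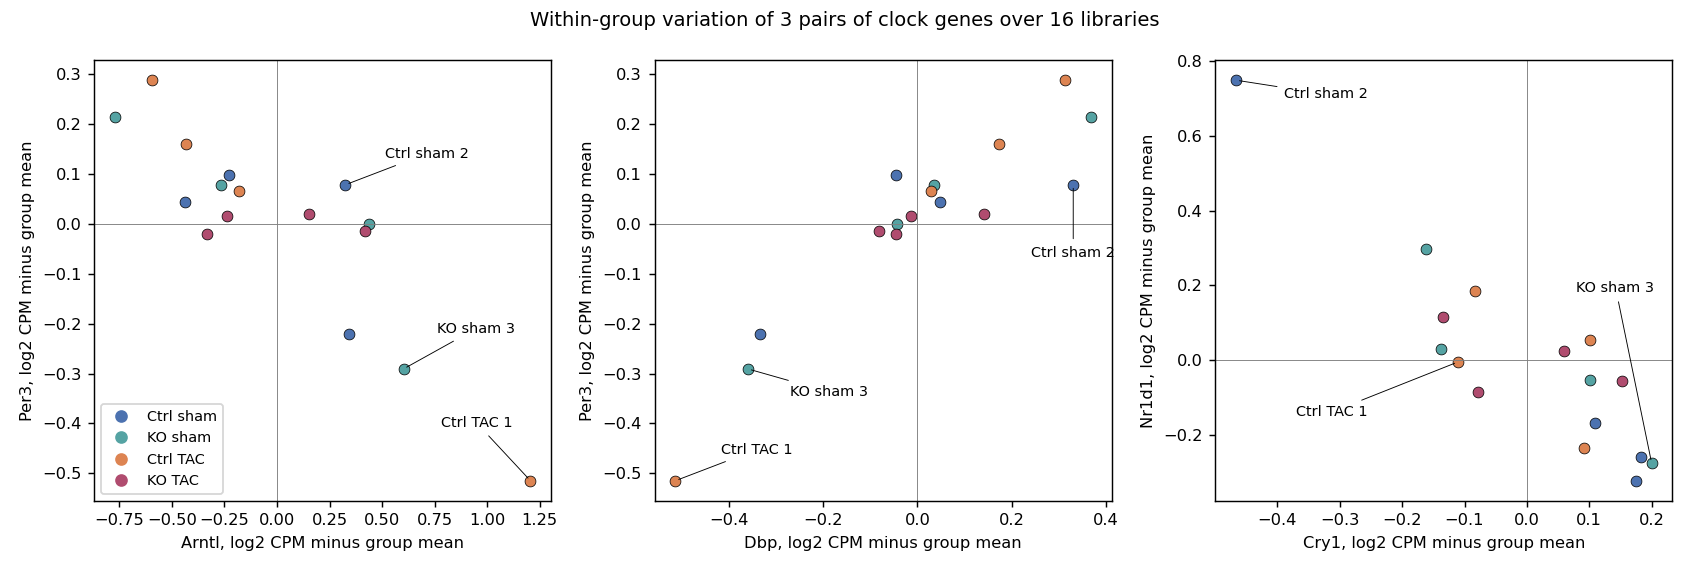
Group-centred log2 CPM of 3 pairs of members in the 16 libraries (points, coloured by group), with Arntl against Per3 (r = -0.86), Dbp against Per3 (r = 0.92) and Cry1 against Nr1d1 (r = -0.89). Ctrl TAC 1 and KO sham 3 have the lowest Per3 values in the first 2 plots, and Ctrl sham 2 lies alone at the end of the last.

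Other genes also set these libraries apart. The sum of 5 endothelial markers was 560 CPM in KO sham 3 against 441 to 481 in the other KO sham libraries, and 581 in Ctrl TAC 1 against 428 to 456 in the other Ctrl TAC libraries. The 10 glucocorticoid-responsive genes, Per1 included, summed to 647 CPM in KO sham 3 against 795 to 1134, and to 615 in Ctrl TAC 1 against 877 to 986. The 12 clock output genes summed to 1153 CPM in KO sham 3 against 1294 to 1718, and to 865 in Ctrl TAC 1 against 1045 to 1133. Klf9, Tsc22d3 and Pdk4 are in both of these sums. Smooth muscle and pericyte markers summed to 597 CPM in Ctrl TAC 1 against 620 to 675, and KO sham 3 lay within its group. Cardiomyocyte markers differed less, at 45514 CPM in KO sham 3 against 45805 to 50759. In Ctrl TAC 1 they were at 41841, within the 39133 to 43074 of its group. Ctrl TAC 1 had also the highest Cardinal level of all libraries (8.02 CPM). The part of these differences in the clock pattern was not tested.

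Genes outside the clock lists followed Arntl and Dbp as closely as members did. The genes most like Arntl over the 16 group-centred libraries, among 10147 named genes with an average of at least 2 log2 CPM, were Slc16a6 (r = 0.91), Mmrn2 (0.91), Nrp1 (0.89), Gimap1 (0.89) and Rcan1 (0.89). Mmrn2 and Nrp1 are expressed in endothelium, and Rcan1 encodes an inhibitor of calcineurin. The most opposite were Ephx1 (-0.91), Ispd (-0.90), Vrk3 (-0.90), Pfkfb1 (-0.89) and Zbtb33 (-0.87). Most like Dbp were Hs2st1 (r = 0.94), Carns1 (0.93), Tns2 (0.92), Cpt1a (0.92) and Nckap5 (0.92), of which Cpt1a imports fatty acids into mitochondria. Most opposite to Dbp were Atp6v1b2 (-0.95), Vmp1 (-0.94), Tigar (-0.92), Dnaja4 (-0.90) and Popdc3 (-0.89). These genes were picked for their r, which is a description without a test. Without Ctrl TAC 1 and KO sham 3, r of the 20 genes lay between 0.70 and 0.91 in size and kept its sign. Of the clock members, Per3 ranked 4 from the top of all 18275 tested genes in likeness to Dbp, not counting Dbp itself, and 9 from the bottom in likeness to Arntl.

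The animal numbers in the sample titles fall into series whose meaning the labels do not give. Among the sham libraries 4 have numbers that start with 33, Ctrl sham 4 and KO sham 1, 2 and 3. In these Dbp was at 86.9 to 114 CPM against 133 to 173 in the other 4, and Per3 at 40.7 to 52.6 against 54.6 to 57.8. These 2 of 10 members did not overlap between the series, where 7.66% of all genes did not. A term for the series in the model, tested after seeing the data, called 0 members (0.389% of all genes), with Dbp at -0.47 ± 0.17 (edgeR adjusted p = 0.370) as the single member at an unadjusted p under 0.05 (9.21% of all genes). Pdk4, a glucocorticoid-responsive and clock output gene that blocks glucose oxidation and was named after its value was seen, was called at -1.39 ± 0.25 (adjusted p = 0.0259). With the term in the model, Nr1d1 no longer passed in KO hearts, and Per3 passed in both genotypes (-0.40 in Ctrl and -0.49 in KO, adjusted p = 0.0407 and 0.0370). In that model the KO estimates lean on the lone KO sham library outside the series, KO sham 4. No TAC library has a number of this series, so series and surgery are partly confounded, most of all in KO hearts. Since 3 of the 4 animals of this series were KO, series and genotype are largely confounded within sham.

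Among the TAC libraries the numbers of Ctrl TAC 2, 3 and 4 and KO TAC 4 start with 25. Tef was at 168 to 198 CPM in these and at 146 to 164 in the other 4, and Per2 at 46.1 to 50.6 against 26.2 to 45.6. These 2 of 10 members did not overlap, where 6.01% of all genes did not. A term for this series called 0 members (0.0109% of all genes), with 4 at an unadjusted p under 0.05 (6.98% of all genes). Of these, Arntl was at -1.0 ± 0.32 in the series (edgeR adjusted p = 0.573), Tef at 0.24 ± 0.09, Nr1d2 at 0.30 ± 0.12 and Per3 at 0.35 ± 0.14. With it, Arntl passed for TAC in Ctrl (1.31, adjusted p = 0.0274), where the estimate rests on the lone Ctrl TAC library outside the series, Ctrl TAC 1, and Per3 passed in Ctrl (-0.62, adjusted p = 0.0223) and KO (-0.36, adjusted p = 0.0308). Tef stayed called for TAC in both genotypes with either term. No sham library has a number of this series, so series and surgery are partly confounded, most of all in Ctrl hearts. Since 3 of the 4 animals of this series 25 were Ctrl, series and genotype are largely confounded within TAC. The other animal, KO TAC 4, held Cardinal at a Ctrl level. With the series 25 term, KO against Ctrl in TAC called 0.0657% of all genes, against 2.68% without it.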

How the data were processed

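RNA from the apex of 16 mouse hearts (4 groups of 4) was sequenced as poly(A)-selected, paired-end libraries, and the deposited values are raw counts per gene made by the authors. Submitters' processing notes name cutadapt 2.3, FastQC, HISAT2 2.1.0, GRCm38 and edgeR 3.26.1. The counting program, annotation release and strand setting are not given in the sources used here. Replicates were numbered in accession order and pair nothing. Genes were named from the GRCm38 annotation. After edgeR's filter on low counts, 18275 of 55487 genes were tested with edgeR 4.0.16 (R 4.3.3; TMM, robust quasi-likelihood test on all 16 libraries, Benjamini-Hochberg adjustment over all genes, threshold 0.05), which was tested on simulated data. Library totals were 53169437 to 79404714 counts. Correlations used log2 CPM (prior count 2) minus group means. Alternatives were RLE factors, DESeq2 1.42.0, no filter or at least 10 counts in every library, terms for animal-number series 25 and 33, fits to the 8 libraries compared, each library left out, and Ctrl TAC 2 with KO TAC 4 left out. Leaving out Ctrl TAC 1 with KO sham 3, testing the series terms themselves and running DESeq2 without KO TAC 4 were chosen after seeing the data.

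The members and lists were chosen with earlier results of these data known. Named were the members, other clock genes called in a contrast, up to 4 called genes with the largest change from the output and glucocorticoid lists, and the 5 genes most like and most opposite to Arntl and Dbp. Of the 18 other clock genes, 2 count in the totals and are not reported here.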

Additional observations from a re-analysis of the deposited data

Results flagged for a closer look

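Of the 40 groups of 4 libraries formed by the 10 members, 4 held a library that lay far from its group, with a gap to the nearest library that exceeded Dixon's 95% limit as a share of the group's range (0.862 to 0.897 of the range). Chance alone flags about 1 in 20 such groups. Arntl was at 3.10 CPM in Ctrl TAC 1, against 1.17 in the nearest Ctrl TAC library. Per1 was at 41.4 CPM in KO sham 3, against 75.2 in the nearest. Ctrl sham 2 stood out for both Cry1, at 9.94 CPM against 14.8, and Nr1d1, at 85.4 CPM against 45.2.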

How the results depend on the processing

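With DESeq2 or RLE factors, all 64 log2 values kept their direction and side of the threshold, and Tef stayed called for TAC in both genotypes under every alternative run. Clock members called for TAC numbered 2 in Ctrl and 4 in KO. They became 1 and 2 with no low-count filter, 1 and 2 without Ctrl TAC 2 and KO TAC 4, and 4 in Ctrl with the series 25 term. Leaving out 1 library gave 1 to 3 in Ctrl and 1 to 5 in KO. Between KO TAC and Ctrl TAC, members went from 0 to 1 without Ctrl TAC 1 and KO sham 3. Other clock genes there went from 0 to 2 by DESeq2, 1 under the strict filter, 1 in the 8-library fit, 2 without Ctrl TAC 1 and KO sham 3 and 0 to 1 with 1 library out. Called correlations fell from 12 to 0 without Ctrl TAC 1 and KO sham 3. They also fell to 0 within sham and within TAC, where 576 arrangements leave little room to pass. The sign turned only for uncalled values. With the series 33 term these were 0.027 (Per2) and -0.23 (Dbp) for TAC in KO, -0.028 (Clock), -0.18 (Per2), 0.062 (Per3) and -0.046 (Cry1) for genotype in sham, and 0.0094 (Arntl), 0.15 (Per2), -0.095 (Per3), 0.093 (Cry1), -0.0019 (Nr1d2) and -0.030 (Dbp) for the interaction. With the series 25 term they were -0.19 (Arntl), 0.30 (Per2), 0.17 (Per3), 0.099 (Nr1d2) and 0.096 (Dbp) for genotype in TAC, and 0.25 (Per2), 0.068 (Cry1) and 0.089 (Tef) for the interaction. Without Ctrl TAC 1 and KO sham 3 they were 0.033 (Per1) and 0.049 (Dbp) for TAC in Ctrl, -0.0017 (Dbp) for TAC in KO, -0.013 (Clock), 0.067 (Per1), 0.0064 (Per3) and -0.0047 (Cry1) for genotype in sham, and 0.39 (Arntl), -0.18 (Per3), 0.016 (Cry1), -0.13 (Nr1d2) and -0.050 (Dbp) for the interaction. Without Ctrl TAC 2 and KO TAC 4 the lone such value was -0.020 (Nr1d2) for the interaction. With 1 library out, ranges that crossed 0 were -0.15 to 0.033 (Per1), -0.0027 to 0.43 (Nr1d1) and -0.20 to 0.049 (Dbp) for TAC in Ctrl. They were -0.0019 to 0.24 (Dbp) for TAC in KO. They were -0.013 to 0.12 (Clock), -0.19 to 0.067 (Per1), -0.13 to 0.32 (Per2), -0.16 to 0.0065 (Per3) and -0.068 to 0.12 (Cry1) for genotype in sham. They were -0.041 to 0.74 (Arntl), -0.21 to 0.081 (Per2), -0.18 to 0.065 (Per3), -0.0078 to 0.090 (Cry1), -0.16 to 0.038 (Nr1d2) and -0.24 to 0.010 (Dbp) for genotype in TAC. They were -0.63 to 0.17 (Arntl), -0.022 to 0.11 (Clock), -0.35 to 0.10 (Per2), -0.094 to 0.15 (Per3), -0.077 to 0.11 (Cry1), -0.037 to 0.16 (Nr1d2) and -0.12 to 0.027 (Tef) for the interaction. Lost calls with the series 33 term were Nr1d2 (-0.41, adjusted p = 0.0527) and Bhlhe41 (0.40, 0.0704) in KO, and with the series 25 term Cry2 (-0.24, 0.0795) in Ctrl. Without Ctrl TAC 2 and KO TAC 4, Clock (0.23, 0.0573), Nr1d1 (0.66, 0.0506) and Hlf (-0.58, 0.0838) in KO and Nr1d2 in Ctrl (-0.34, 0.0859) were lost. The cause was not tested. No paired analysis was possible because replicate numbers follow accession order and pair no animals. Arntl rests on 39 to 176 counts per library, the fewest of the members.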

Other observations

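The clock genes outside the 10 members also differed among libraries within groups, after subtraction of the group means. Nfil3, which represses at D-boxes and so opposes the PAR bZIP factors, ran against Dbp (r = -0.80 over 16 libraries, rank 74 from the bottom of 18275 genes). Hlf and Ciart, a repressor of the ARNTL and CLOCK pair, ran with Dbp (r = 0.86 and 0.78, ranks 46 and 168 from the top). Without Ctrl TAC 1 and KO sham 3 these values were -0.70, 0.70 and 0.65. Bhlhe41 kept r = 0.77 with Dbp in both sets, while Per1, a member, went from 0.65 to 0.06. Other clock genes had smaller r with Dbp over the 16 libraries, such as Cry2 (0.20), Rora (0.11), Arntl2 (0.11) and Bhlhe40 (0.08). Without Ctrl TAC 1 and KO sham 3, Rora was at -0.69 and Arntl2 at 0.68. Npas2 and Arntl2, the paralogs of Clock and Arntl, had r of only 0.29 and 0.15 with Arntl. These correlations are descriptions over 16 libraries that share 1 scaling, with no test.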
